A study of Mustela putorius furo and Mus musculus with 4 samples.

Results

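Outer radial glia genes were compared between cultured ferret and mouse astrocytes. The set holds 8 genes fixed by name, namely Hopx, Fam107a, Moxd1, Ptprz1, Tnc, Lifr, Pdgfd and Bmp7. Of these, 7 had a value in both species, among 13373 gene symbols shared by the ferret and the mouse, and Hopx had a value in the mouse only. The 2 ferret libraries came from primary astrocytes of Mustela putorius furo on postnatal day 1, and the 2 mouse libraries from primary astrocytes of wild-type ICR mice between postnatal day 1 and day 3. Both kinds of culture were made from the cerebral cortex, grown as mixed glia with serum for 14 days, shaken for 12 hours to remove loose cells, and replated. Before RNA was taken, the serum medium was replaced in both species by a serum-free growth medium. That medium held, among other additions, heparin-binding EGF-like growth factor. No gene was altered in either group. A ferret culture began with the cells of a single pup spread over several flasks, whereas cells of several mouse pups shared a flask, so that mouse cultures pooled animals. Each sample is RNA of a whole culture, and whether the duplicates came from separate cultures was not stated, so their spread may be technical.

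Outer radial glia, also called basal radial glia, are neural progenitors of the outer subventricular zone. They keep a process towards the pial surface and divide away from the ventricle. They are abundant in the developing cortex of species with a folded brain, such as the human and the ferret, and sparse in the mouse. They also produce astrocytes late in development. Many of the genes by which they are recognised are shared with astrocytes or with other radial glia, so the presence of these genes in an astrocyte culture does not identify an outer radial glial cell.

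The values are FPKM, that is fragments per length of transcript, scaled to the mapped fragments of the library. Each species was quantified on its own genome and annotation, and differences in the gene models of the species therefore enter every value. Species, annotation and culture cannot be told apart in this design. Differences are given as ferret minus mouse on the log2(FPKM + 1) scale, which understates the change of genes with low values, and were tested with limma over the 10204 genes whose mean reached 1 FPKM in one of the species or both. A gene was called when its Benjamini-Hochberg adjusted p was under 0.05 and its absolute log2 difference above 1. With 2 libraries in each species, the smallest two-sided p of an exact permutation test is 0.333, so the tests rest on the spread that limma shares across genes.

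Of the 7 genes tested, 3 were called higher in ferret astrocytes (Moxd1, Bmp7 and Lifr), 1 was called lower (Pdgfd), and 3 were not called (Fam107a, Ptprz1 and Tnc). Across all genes tested, 13.1% were called higher, 30.1% lower and 43.2% in either direction. The 7 genes all had an adjusted p under 0.05 by limma, as did 88.6% of all genes tested. The libraries of the species did not overlap for any of the 7, with the ferret above the mouse for 5 and below it for 2. Among all genes tested 94.1% did not overlap, with the ferret above for 35.1% and below for 59%. A lack of overlap or an adjusted p alone was therefore the rule in this comparison. The median log2 difference was 0.63 for the 7 genes and -0.35 for all genes tested. That median of all genes depended on scaling. Over the shared symbols, FPKM summed to 227391 and 236543 in the ferret libraries against 300465 and 308121 in the mouse libraries. The median of all genes was -0.01 when each library was rescaled to the mean library sum of the shared symbols and 0.05 after quantile normalization. That of the 7 genes, set by Fam107a, was then 1.02 and 1.01. With these scalings 1954 genes were called higher and 2215 lower, or 2080 and 2082, against 1336 and 3069 with FPKM as deposited. Under both, Fam107a passed the call as well, so that 4 of the 7 genes were higher. In bulk RNA, fewer cells of a type and less RNA per cell cannot be told apart, and markers of several cell types also differed between the cultures, as described at the end.

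**Figure D1:**
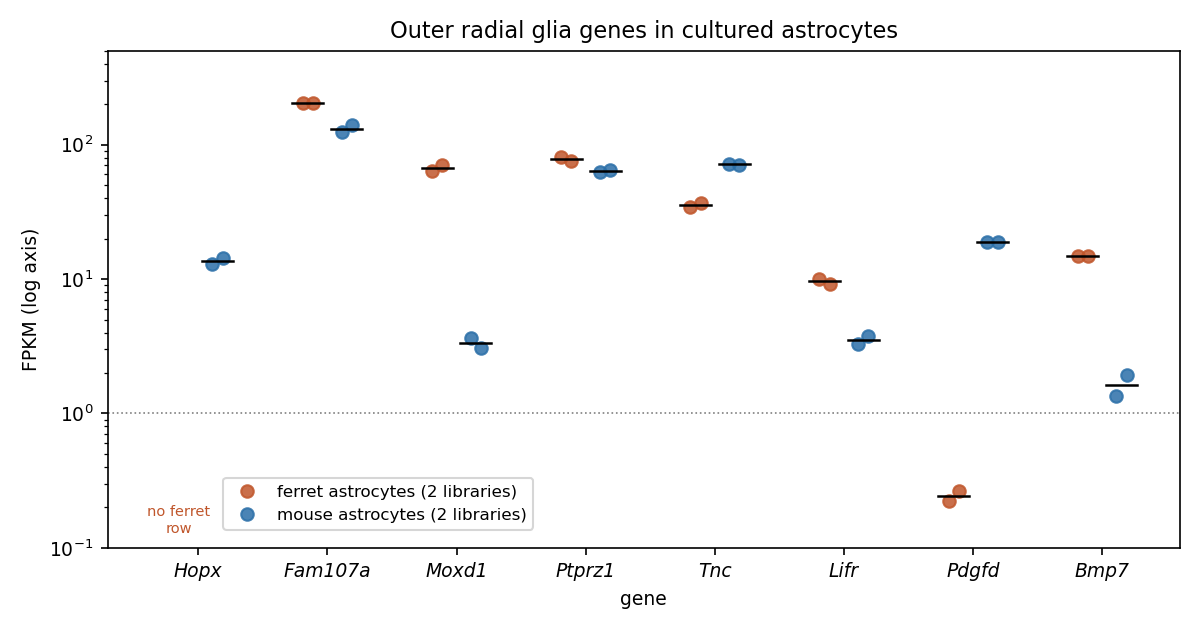
FPKM (log axis) of the 8 outer radial glia genes, with a point for each of the 2 ferret and 2 mouse libraries and a black bar at the mean of each species. The dotted line marks 1 FPKM. Moxd1, Lifr and Bmp7 lie higher in both ferret libraries, Pdgfd lies below 1 FPKM in the ferret and near 19 FPKM in the mouse, and Hopx has mouse values only.

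Moxd1 encodes a copper-dependent monooxygenase of the secretory pathway, related to dopamine beta-hydroxylase. Ferret libraries 1 and 2 had 64.1 and 70.6 FPKM, and mouse libraries 1 and 2 had 3.63 and 3.06. Both ferret libraries were far above both mouse libraries, and the mean was 20.1 times as high. This was a log2 difference of 3.98 ± 0.082 (SE, limma adjusted p = 1.02e-10). Moxd1 stood above 95.1% and 95.5% of the shared genes in the ferret libraries, and above 39.8% and 37.6% in the mouse libraries. Mouse Moxd1 is at chr10:24223517-24302790 (GRCm38, plus strand), in 13 exonic regions. Among other copper monooxygenases, a list of 3 genes, Dbh had a mean below 1 FPKM in both species and Moxd2 had no value in one species. Pam, which amidates neuropeptides, had 86.1 and 87.1 FPKM in the ferret, and stood near 0 in both mouse libraries, which can be a failed estimate and is given without a fold.

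Bmp7 encodes a secreted bone morphogenetic protein, a ligand that signals through serine/threonine kinase receptors and SMAD proteins and that promotes astrocyte differentiation. Both ferret libraries had 14.8 FPKM, and mouse libraries 1 and 2 had 1.35 and 1.93. The ferret values did not overlap with the mouse values, and the mean was 9.05 times as high. Its log2 difference was 2.59 ± 0.103 (SE, limma adjusted p = 6.05e-09). It was 3.12 with a pseudocount of 0.1, since the mouse values lie close to the pseudocount of 1. Bmp7 was the lowest of the 8 genes in the mouse, above 30% and 32.9% of the shared genes, and stood above 75.7% and 75.2% in the ferret. Mouse Bmp7 is at chr2:172868012-172940321 (GRCm38, minus strand), in 7 exonic regions.

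In a list of 23 other genes of the BMP pathway, with ligands, receptors, SMADs, Id targets and inhibitors, 21 had a value in both species and 18 were tested. Of these, 1 was called higher and 7 lower in the ferret, where 13.1% and 30.1% of all genes tested were, and the list had a median of -0.62 on the log2 scale. After either scaling, 5 were lower and 1 higher. The ligand Bmp4 had 0.069 and 0.197 FPKM in the ferret and 19.6 and 21.2 in the mouse (log2 difference -4.24, limma adjusted p = 9.08e-11). Bmp4 passed the filter on low values through the mouse alone and so had to be lower in the ferret. Bmp6 had 2.12 and 1.57 FPKM in the ferret and 24.6 and 23.6 in the mouse (log2 difference -3.15, limma adjusted p = 9.86e-10). The most abundant of the BMP ligands listed was thus Bmp7 in ferret astrocytes and Bmp6 in mouse astrocytes. The gene called higher was Fst, which encodes follistatin, a secreted protein that binds activins and some BMPs. It had 11.7 and 10.0 FPKM in the ferret and 2.02 and 2.36 in the mouse (log2 difference 1.89, limma adjusted p = 2.65e-08).

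Lifr encodes the receptor for leukemia inhibitory factor. It pairs with gp130, the product of Il6st, and signals through JAK kinases and STAT3, a pathway that drives astrocyte differentiation. Ferret libraries 1 and 2 had 9.94 and 9.26 FPKM of Lifr, and mouse libraries 1 and 2 had 3.30 and 3.77. The ferret libraries were both higher, with a mean 2.71 times that of the mouse. The species differed on the log2 scale by 1.23 ± 0.082 (SE, limma adjusted p = 2.61e-07). The gene stood above 66.6% and 64.5% of the shared genes in the ferret and above 38.5% and 40.5% in the mouse. Mouse Lifr is at chr15:7090614-7197489 (GRCm38, plus strand), in 24 exonic regions. The ratio of Bmp7 to Lifr, which does not change when a library is multiplied by a constant, was 1.49 and 1.6 in the ferret and 0.408 and 0.511 in the mouse libraries.

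In a list of 15 genes for the ligands, receptors and kinases around Lifr, 13 had a value in both species and 11 were tested. Of these, 1 was called higher and 5 lower with FPKM as deposited, beside 13.1% and 30.1% of all genes tested. The median log2 difference of the list was -0.41. After either scaling, 2 were higher and 3 lower. The ligand Lif was the gene called higher, with 7.76 and 6.09 FPKM in the ferret and 2.00 and 1.31 in the mouse (log2 difference 1.58, limma adjusted p = 1.78e-06). The ligand Clcf1 and the oncostatin M receptor Osmr had the lowest differences of the genes tested in this list. Clcf1 had 4.58 and 4.96 FPKM in the ferret and 23.6 and 23.3 in the mouse (log2 difference -2.08, limma adjusted p = 1.75e-09). Osmr had 10.1 and 11.03 FPKM in the ferret and 40.5 and 39.8 in the mouse (log2 difference -1.83, limma adjusted p = 3.13e-09). Il6st, the partner of Lifr, was picked out with its values already known. It had 40.4 and 38.4 FPKM in the ferret and 86.5 and 88.9 in the mouse (log2 difference -1.14, limma adjusted p = 3.83e-08), which became -0.75 and -0.79 under the other scalings and was then not called. Lifr and its partner thus differed in opposite directions between the species.

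Pdgfd encodes a platelet-derived growth factor chain that activates the receptor PDGFR-beta. Ferret libraries 1 and 2 had 0.225 and 0.264 FPKM, and mouse libraries 1 and 2 had 18.7 and 18.9. No other gene of the set was below 1 FPKM in either species. Pdgfd passed the filter on low values through the mouse alone and so, once tested, had to be lower in the ferret. The mouse mean was 77.0 times the ferret mean, a ratio that rests on very low ferret values. On the log2 scale the difference was -3.99 ± 0.074 (SE, limma adjusted p = 5.31e-11), and it was -5.78 with a pseudocount of 0.1. Pdgfd stood above 22.4% and 23.5% of the shared genes in the ferret, and above 74.2% in both mouse libraries. Mouse Pdgfd is at chr9:6168584-6378850 (GRCm38, plus strand), in 7 exonic regions. Ddi1 overlaps this interval and had at most 0.0085 FPKM in the mouse libraries.

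The list of other PDGF ligands and receptors held 5 genes, Pdgfa, Pdgfb, Pdgfc, Pdgfra and Pdgfrb, all above 1 FPKM in each of the 4 libraries. None was called higher and 2 were called lower, beside 13.1% and 30.1% of all genes tested. The receptor for PDGF-D, Pdgfrb, had 4.57 and 4.38 FPKM in the ferret and 24.5 and 22.7 in the mouse (log2 difference -2.16, limma adjusted p = 1.59e-09). Pdgfc had 2.58 and 2.31 FPKM in the ferret and 11.5 and 12.3 in the mouse (log2 difference -1.90, limma adjusted p = 7.46e-09). The ligand Pdgfd and its receptor were therefore both lower in ferret astrocytes. Beside them, the summed FPKM of meningeal fibroblast markers was 127 and 112 in the ferret and 1629 and 1607 in the mouse, and that of pericyte and smooth muscle markers, Pdgfrb included, was 194 and 170 in the ferret and 1133 and 1175 in the mouse. Most of that sum was Tagln and Acta2, genes of contractile cells. The pericyte marker Kcnj8 was the marker called higher, at 11.7 and 11.3 FPKM in the ferret and 0.014 and 0.023 in the mouse. Kcnj8 passed the filter on low values through the ferret alone and so had to be higher. The observations on that sum and on Kcnj8 were made with the values known. The part of such cells in the values of Pdgfd was not tested. Pdgfrb and Pdgfc remained called lower under the other scalings. Pdgfra, the receptor of oligodendrocyte precursors, was called higher under them, at log2 differences of 1.04 and 1.18 (named after its values were seen).

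Ptprz1 encodes a receptor-type tyrosine phosphatase of glia that carries chondroitin sulfate chains and whose secreted form is phosphacan. Ferret libraries 1 and 2 had 81.7 and 75.5 FPKM, and mouse libraries 1 and 2 had 62.7 and 64.6. The ferret libraries were higher without overlap, with a mean 1.23 times that of the mouse. Its log2 difference of 0.30 (95% interval 0.16 to 0.44, limma adjusted p = 0.00117) was under the size required for a call. It stayed under that size with the other scalings, at 0.68 and 0.63. The gene stood above 96.6% and 95.9% of the shared genes in the ferret and above 93.1% and 93.2% in the mouse. Mouse Ptprz1 is at chr6:22875502-23052916 (GRCm38, plus strand), in 28 exonic regions. Among 9 other receptor tyrosine phosphatases, none was called higher and 4 were called lower, beside 13.1% and 30.1% of all genes tested. Their median log2 difference was -0.45, and 1 was higher and 3 lower after either scaling. The lower genes included Ptprg, the closest relative of Ptprz1, at 9.77 and 9.96 FPKM in the ferret and 36.2 and 39.5 in the mouse (log2 difference -1.84, limma adjusted p = 3.30e-09). Ptprf, at 12.1 and 12.3 FPKM in the ferret and 39.8 and 41.7 in the mouse, was also lower (log2 difference -1.66, limma adjusted p = 3.55e-09).

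Tnc encodes tenascin-C, a glycoprotein of the extracellular matrix that binds integrins and phosphacan. Ferret libraries 1 and 2 had 34.5 and 36.7 FPKM, and mouse libraries 1 and 2 had 72.0 and 70.6. Both ferret libraries were lower, and the mouse mean was 2.00 times the ferret mean. Its log2 difference of -0.98 (95% interval -1.12 to -0.85, limma adjusted p = 1.26e-07) was just short of the size required for a call. It was -1.02 and called without ferret replicate 2, -1.0 and called with a pseudocount of 0.1, and -0.60 and -0.65 under the other scalings. The ratio of Tnc to Ptprz1 was 0.423 and 0.486 in the ferret and 1.15 and 1.09 in the mouse libraries. Mouse Tnc is at chr4:63959785-64047015 (GRCm38, minus strand), in 27 exonic regions. The gene 8030451A03Rik overlaps this interval and had 0.908 and 0.598 FPKM in the mouse. Of 3 other tenascin genes, Tnr alone was tested. It had 0.154 and 0.190 FPKM in the ferret and 12.9 and 13.9 in the mouse (log2 difference -3.61, limma adjusted p = 1.23e-10). Tnr passed the filter on low values through the mouse alone and so had to be lower in the ferret.

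Genes for partners of PTPRZ1 and tenascin-C went both ways. In a list of 14 ligands, cell adhesion molecules and integrin chains, 12 had a value in both species and 11 were tested. Of these, 3 were called higher and 5 lower, where 13.1% and 30.1% of all genes tested were. Itga8 and Itga9, among the lower genes, passed the filter on low values through the mouse alone and so had to be lower. The soluble ligands of PTPRZ1, pleiotrophin (Ptn) and midkine (Mdk), and its neuronal and glial binding partner contactin-1 (Cntn1) were the 3 higher genes. Ptn had 277 and 299 FPKM in the ferret and 87.0 and 93.0 in the mouse (log2 difference 1.67, limma adjusted p = 5.03e-09). Cntn1 had 28.8 and 24.9 FPKM in the ferret and 6.2 and 7.19 in the mouse (log2 difference 1.85, limma adjusted p = 2.48e-08). Mdk, with a log2 difference of 1.31, is outside the rule for named genes and was named after its values were seen. Of the lower genes, Itgb5, the integrin beta-5 chain, had 5.57 and 5.45 FPKM in the ferret and 89.1 and 92.6 in the mouse (log2 difference -3.82, limma adjusted p = 2.74e-11). Nfasc, which encodes the adhesion molecule neurofascin, had 4.85 and 4.19 FPKM in the ferret and 37.5 and 39.1 in the mouse (log2 difference -2.83, limma adjusted p = 4.57e-10). After either scaling 4 genes were higher and 5 lower.

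**Figure D2:**
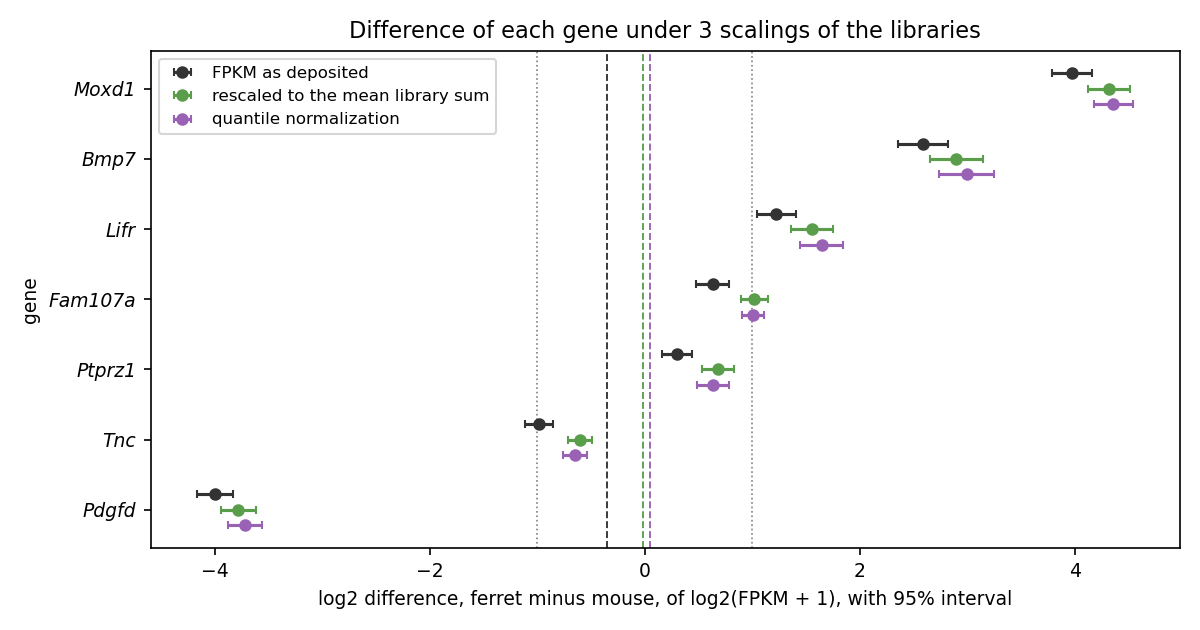
Log2 difference between ferret and mouse astrocytes for the 7 genes tested, with 95% intervals, under 3 scalings of the libraries. Dashed lines mark the median of all genes tested under each scaling and dotted lines the size of 1 required for a call. Pdgfd, Lifr, Bmp7 and Moxd1 stay outside the dotted lines under all 3, while Fam107a lies at 0.63 with FPKM as deposited and crosses the line at 1.02 and 1.01.

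Fam107a encodes an actin-associated protein found in astrocytes and radial glia. It was the most abundant of the 8 genes in both species. Ferret libraries 1 and 2 had 203 and 205 FPKM, and mouse libraries 1 and 2 had 124 and 139, and the ferret libraries were both higher, with a mean 1.55 times that of the mouse. Its log2 difference of 0.63 (95% interval 0.48 to 0.78, limma adjusted p = 9.62e-06) was under the size required for a call. Relative to the median of all genes, it was 0.98 with FPKM as deposited and 1.03 and 0.96 under the other scalings. Fam107a stood above 99% of the shared genes in both ferret libraries and above 97.3% and 97.6% in the mouse. Mouse Fam107a is at chr14:8296274-8318023 (GRCm38, minus strand), in 6 exonic regions. No other annotated gene overlaps it there.

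Hopx encodes a small homeodomain protein that does not bind DNA directly and is a widely used marker of outer radial glia. It had 12.9 and 14.3 FPKM in the mouse libraries, above 65.1% and 67.7% of the shared genes. It is missing from the ferret values used here, so the species could not be compared for this gene. Another annotation of the ferret (RefSeq) holds 1 entry for Hopx, so the missing value does not mean that the ferret lacks the gene. The same search by symbol found 0 entries for Bmp7, which has ferret values here, and 1 for each of the other genes. Why Bmp7 was not found there was not examined. Reads of the ferret gene were not analysed here. Mouse Hopx is at chr5:77086988-77115121 (GRCm38, minus strand), in 3 exonic regions. Hopxos overlaps it and had 0.024 and 0.098 FPKM in the mouse libraries.

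The order of the genes by FPKM differed between the species. In ferret astrocytes it ran from Fam107a through Ptprz1, Moxd1, Tnc, Bmp7 and Lifr to Pdgfd. No neighbours in this order overlapped between libraries, although Ptprz1 exceeded Moxd1 only 1.17 times. In mouse astrocytes it ran from Fam107a through Tnc, Ptprz1, Pdgfd, Hopx, Lifr and Moxd1 to Bmp7. Lifr and Moxd1 overlapped between the mouse libraries and could not be ordered. Within each species the duplicates gave similar ranks, and the plot of ranks shows Moxd1 and Pdgfd crossing between the species.

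**Figure D3:**
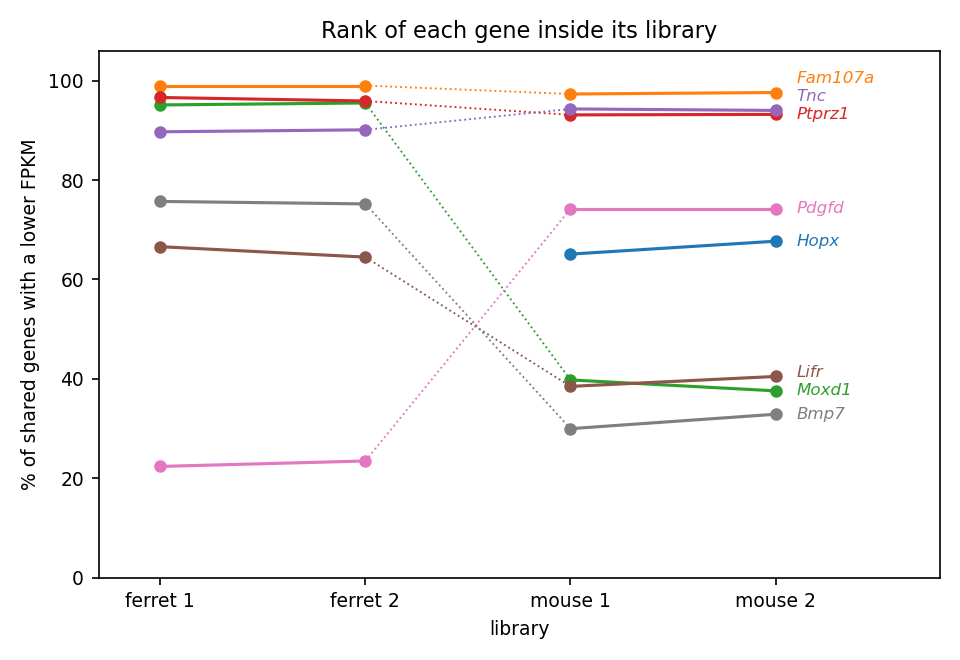
Percentage of the 13373 shared genes with a lower FPKM than each outer radial glia gene, in each of the 4 libraries. Solid lines join the duplicates of a species and dotted lines join the species. Moxd1, Bmp7 and Lifr rank higher in both ferret libraries, Pdgfd ranks higher in both mouse libraries, and Fam107a, Ptprz1 and Tnc rank above 89.7% or more of the genes wherever measured.

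Genes of radial glia in general were also examined, not all of which need be shared by outer radial glia. Of a list of 14, 12 had a value in both species and were tested. None was called higher in ferret astrocytes and 6 were called lower, beside 13.1% and 30.1% of all genes tested, at a median of -0.97 on the log2 scale. Under the other scalings 3 and 2 were lower and none was higher, at medians of -0.63 and -0.57. Prom1, which encodes prominin-1 of apical membranes and cilia, had 0.386 and 0.287 FPKM in the ferret and 9.82 and 10.9 in the mouse (log2 difference -3.09, limma adjusted p = 5.23e-10). Prom1 passed the filter on low values through the mouse alone and so had to be lower in the ferret. Fabp7, a fatty acid-binding protein of radial glia, had 190 and 170 FPKM in the ferret and 1232 and 1271 in the mouse (log2 difference -2.79, limma adjusted p = 2.89e-10).

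Genes of intermediate progenitors and neurons were close to the lower end of the measured range. Of 11 such genes, 9 had a value in both species, and the mean was below 1 FPKM for 7 of them in the ferret and for 9 in the mouse. Only Insm1 and Dcx were tested, and both were called higher in ferret astrocytes. They passed the filter on low values through the ferret alone and so had to differ. Insm1 had 1.64 and 1.81 FPKM in the ferret and 0.020 and 0.033 in the mouse, and Dcx had 1.66 and 1.25 in the ferret and 0.015 and 0.041 in the mouse.

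**Figure D4:**
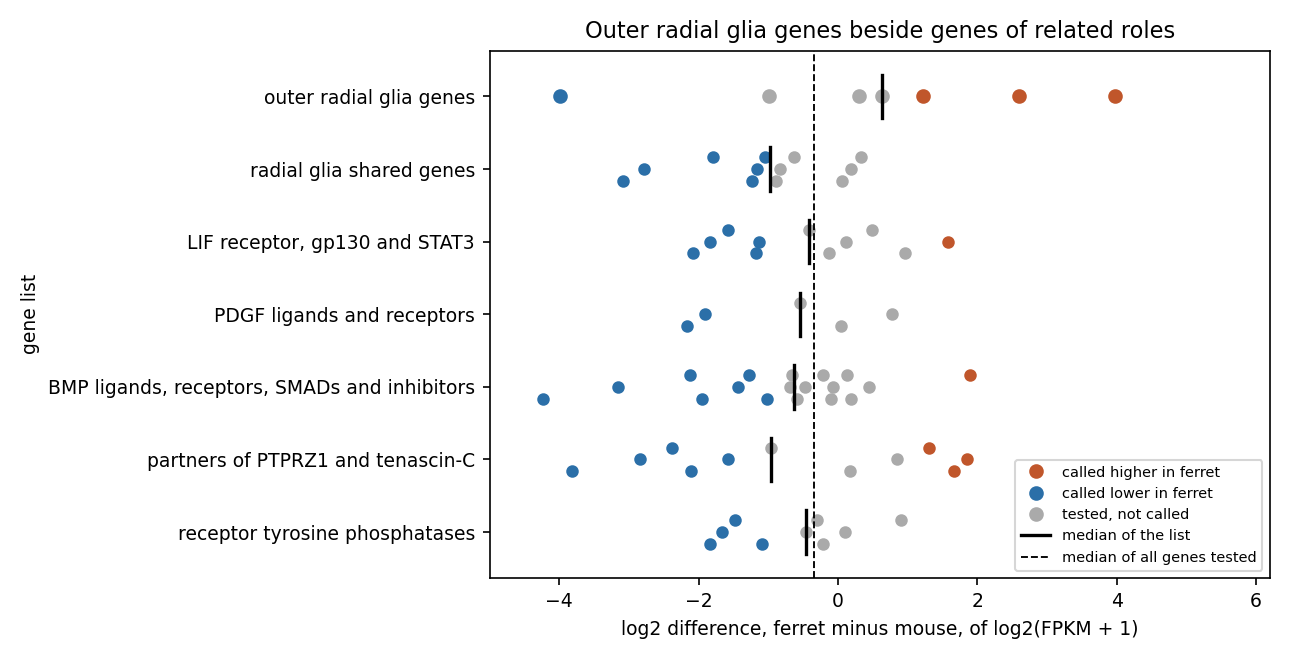
Log2 difference between ferret and mouse astrocytes for the 7 outer radial glia genes tested and for genes of related roles, with a point for each gene, coloured by its call, and a black bar at the median of each list. The dashed line marks the median of all genes tested, -0.35. The outer radial glia genes spread from -3.99 to 3.98. In the list labelled radial glia shared genes, 6 of the 12 tested are called lower.

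For each gene, the 2 genes with the most similar FPKM over the 4 libraries, by Euclidean distance on the log2(FPKM + 1) scale, were looked up. Tmtc2 and Prkar2b were nearest to Bmp7, at distances of 0.074 and 0.191, and P2rx6 and Ppm1e to Lifr, at 0.102 and 0.138. Dysf and Sbsn were nearest to Pdgfd, at 0.135 and 0.142. Trappc1 and Fxyd1 were nearest to Tnc, at 0.070 and 0.077, and Smpdl3a and Rab6a to Ptprz1, at 0.101 and 0.142. Cap1 and Psmb4 were nearest to Fam107a, at 0.233 and 0.257. Moxd1 had the most distant neighbours, Birc3 and Bex4, at 0.382 and 0.556.

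Markers of cell types moved between the species as well, and their part in the values above was not tested. The counts below stand beside 13.1% of all genes tested called higher and 30.1% called lower. Of 10 astrocyte markers, 1 was called higher and 6 lower in the ferret (2 and 4 under the other scalings), and their summed FPKM was 3576 and 3674 in the ferret and 3258 and 3530 in the mouse. Most of these sums came from Gfap, at 1481 and 1522 FPKM in the ferret and 1429 and 1546 in the mouse, and Aldoc, at 1619 and 1700 against 916 and 1015. Astrocyte markers other than Slc1a2, which was below 1 FPKM in the ferret, were above 1 FPKM in all 4 libraries. Slc1a2 passed the filter through the mouse alone and so had to be lower. Of 11 microglial markers with a value in both species, all were called lower, with sums of 7.15 and 6.19 FPKM in the ferret against 553 and 541 in the mouse, and Cx3cr1 is listed at 0 in both ferret libraries. The mean was below 1 FPKM in the ferret for 9 of the 11, which passed the filter through the mouse alone. Of 9 meningeal fibroblast markers, 8 were called lower, among them 3 that passed the filter through the mouse alone. Of 6 pericyte and smooth muscle markers tested, 1 was higher, 3 were lower and 2 were not called. Rgs5, which was not tested, is listed at 0 in both ferret libraries and had 0.601 and 0.576 FPKM in the mouse. Of 7 endothelial markers, 2 were tested, Cdh5 and Tek, which passed the filter through the mouse alone and so had to be lower in the ferret, with sums of 0.600 and 0.518 FPKM in the ferret against 25.9 and 26.2 in the mouse, and Pecam1 is, like both of them, listed at 0 in both ferret libraries. Of 5 ependymal markers, 2 were tested and 1 was lower, with sums of 23.3 and 22.2 FPKM against 61.5 and 66.1. The lower marker, Rsph1, passed the filter through the mouse alone and so had to be lower. Of 4 neuronal markers with a value in both species, 2 were tested and both were higher, with sums of 7.56 and 6.92 FPKM against 1.55 and 1.87. Of the 2, Dcx passed the filter through the ferret alone and so had to be higher, while Syt1 reached 1 FPKM in both species. Of 9 oligodendrocyte lineage markers tested, 4 were called higher, none lower and 5 were not called (6 higher and none lower under the other scalings), with sums of 170 and 189 FPKM in the ferret and 69.1 in both mouse libraries. Among those called higher, Sox10 and Gpr17 passed the filter through the ferret alone and so had to be higher. Mag passed it in the same way and was not called. Cnp, not called with FPKM as deposited, gave 79.9 and 92.0 FPKM of the ferret sums and 45.6 and 47.7 of the mouse sums.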

How the data were processed

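RNA-seq libraries of cultured astrocytes (2 ferret, 2 mouse) were used as deposited. The authors aligned reads with STAR (2.7.0f) to the ferret and mouse (GRCm38) genomes and, with Cufflinks (2.2.1), made the deposited tables of FPKM, in which a gene has a single value per library. The deposited FPKM tables used here hold no counts, and read counts were not used. Steps between the lowest values gave depth ratios of replicate 1 to replicate 2, 1.17 in ferret and 0.835 in mouse.

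Symbols were matched in upper case, and the row with the highest species mean was taken where a symbol had several. Each of the 8 genes had at most 1 row per species. The log2(FPKM + 1) values were fitted with limma (3.58.1, R 4.3.3, empirical Bayes with trend) for genes whose mean reached 1 FPKM in either species. The species was the only term. The procedure was also run on simulated data with few changed genes and a spread taken from the ferret duplicates. Since most genes differed in the real data, that run checks the code and not the calls. Alternatives were a pseudocount of 0.1, no filter or a minimum of 5 FPKM, rescaled libraries, quantile normalization, summed rows, no trend, the replicate number as a block, and each library left out. The genes and lists were chosen with earlier results of these data known. The list genes named were at most 2 called higher and 2 called lower per list, by size of the difference. Mouse coordinates are those of GENCODE M21. A RefSeq list of ferret genes was only searched for the symbols. A ferret genome and protein or promoter sequences were not used here.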

Additional observations from a re-analysis of the deposited data

How the results depend on the processing

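Moxd1, Bmp7, Lifr and Pdgfd kept their direction and their call under all 12 alternatives, and Ptprz1 stayed uncalled under all 12. With no filter, the minimum of 5 FPKM, summed rows, no trend or the replicate block, the log2 difference of these genes could not change, only its adjusted p. Fam107a became called higher, at 1.02 with libraries rescaled to the mean library sum and 1.01 after quantile normalization. Tnc became called lower with a pseudocount of 0.1 (-1.0), which made 2 genes called lower. When each library was left out in turn, the log2 difference of Tnc ranged from -1.02 to -0.94, and the number of genes called lower from 1 to 2. Leaving out ferret replicate 2 gave the value of -1.02 and the count of 2. Leaving out a library leaves a single sample in its group, which limma then assumes to vary like the other group. With the replicate number as a replicate block, 3 genes were called higher and 1 lower, with no call changed. The numbers come from the labels alone and were not taken as a pairing, since the deviations of same-numbered libraries had a correlation of 0.0099 over 10204 genes. Over the role lists, 12 genes were called higher and 22 or 21 lower under the other scalings, against 8 and 30. All 20 list genes named by rule kept their call under both. They had been picked for the largest differences, so this could hardly have come out otherwise and is no check of them. Read counts were not used here, so values under 1 FPKM carry no counting interval.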
